A study of Mus musculus with 12 samples.

Results

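Efferocytosis is the uptake of dying cells by phagocytes, and 8 of its genes were followed here in LPS-treated peritoneal macrophages and in liver. They were Gas6, the bridging ligand, the TAM receptor kinases Tyro3, Axl and Mertk that it engages, the lipid-sensing receptor Trem2 and its adaptor Tyrobp, the scavenger receptor Cd36, and the bridging protein Mfge8. The members were the rows whose Ensembl IDs map to these symbols, 8 of the 55964 gene IDs found in the tables, and all 8 were found in every library. Poly(A) RNA from C57BL/6 mice had been sequenced in 12 libraries, in 4 groups of 3. Liver came either from untreated mice, whose samples are titled WT, or from mice 2 h after LPS, the endotoxin of bacterial outer membranes. Both macrophage groups had received a lentivirus for 72 h and then LPS for 2 h, and no macrophage group without virus or without LPS was part of the comparison. The virus carried a short hairpin RNA, which in shGm26917 targeted Gm26917, a long non-coding RNA, and in shNC was a negative control. The labels give neither the number of hairpin sequences nor the dose and route of LPS, and they do not say whether replicates came from separate mice or cultures, so p-values measure the spread between these libraries. Gm26917 itself was not analysed here in macrophages, and the effect of the hairpin on its target was therefore not checked.

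A dying cell exposes phosphatidylserine on its surface. Gas6 and its relative Pros1, the anticoagulant protein S, bind that lipid with one end and a TAM receptor with the other. Mertk is known as the main engulfment receptor of resting macrophages, and Axl as the TAM receptor that inflammatory stimuli and interferon induce. Mfge8 links phosphatidylserine to integrins alpha-v beta-3 and alpha-v beta-5. Cd36 binds oxidized lipids and long-chain fatty acids and acts beside the integrins in the same uptake. Trem2 binds lipids, lipoproteins and Apoe and has no signalling tail of its own. It signals through Tyrobp, also called DAP12, whose cytoplasmic motif (ITAM) recruits the kinase Syk. TAM receptors also restrain cytokine production, in dendritic cells through Socs1 and Socs3. In liver, Kupffer cells, the resident macrophages, carry out much of the clearance of dying cells, and hepatocytes, sinusoidal endothelium and stellate cells can express some of the same genes.

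The genes lie on 5 mouse chromosomes of GRCm38, the assembly also called mm10, and all are annotated as protein-coding in GENCODE M21. Gas6 (ENSMUSG00000031451) spans chr8:13465374-13494490 on the minus strand. Mertk (ENSMUSG00000014361) spans chr2:128698956-128802894 and Tyro3 (ENSMUSG00000027298) spans chr2:119797733-119818104, both on the plus strand. Axl (ENSMUSG00000002602) at chr7:25757273-25788705 and Mfge8 (ENSMUSG00000030605) at chr7:79133768-79149060 are on the minus strand, and Tyrobp (ENSMUSG00000030579) at chr7:30413760-30417585 is on the plus strand. Trem2 (ENSMUSG00000023992) is at chr17:48346401-48354147 on the plus strand and Cd36 (ENSMUSG00000002944) at chr5:17781690-17888801 on the minus strand. No source used here gives the strand setting of the counting. Strand matters for Gas6, which shares 34 exon bases with the oppositely transcribed Tmem255b. Mertk contains the antisense gene Gm14011 and the small nucleolar RNA gene Gm23172, neither of which overlaps its exons.

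Upstream sequence is shown for the genes that changed in macrophages and have an entry in the RefSeq promoter table (GRCm38.p6), which covers 7 of the 8 members. Each line gives the 250 bases before the gene's RefSeq start, 5′ to 3′ on the gene's own strand. Capitals mark matches, on either strand, to the 7 motifs searched.
Gas6, chr8:13494536-13494785, minus strand: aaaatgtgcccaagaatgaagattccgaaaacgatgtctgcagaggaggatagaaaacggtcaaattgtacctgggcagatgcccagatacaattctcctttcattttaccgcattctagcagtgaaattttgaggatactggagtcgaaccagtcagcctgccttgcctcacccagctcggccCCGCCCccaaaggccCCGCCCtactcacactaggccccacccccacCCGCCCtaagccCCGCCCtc
Trem2, chr17:48346151-48346400, plus strand: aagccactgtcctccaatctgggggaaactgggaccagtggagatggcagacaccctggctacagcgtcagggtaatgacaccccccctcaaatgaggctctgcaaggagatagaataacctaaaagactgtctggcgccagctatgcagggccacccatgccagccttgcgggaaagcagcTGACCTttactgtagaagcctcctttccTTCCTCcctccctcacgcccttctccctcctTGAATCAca
Mfge8, chr7:79149061-79149310, minus strand: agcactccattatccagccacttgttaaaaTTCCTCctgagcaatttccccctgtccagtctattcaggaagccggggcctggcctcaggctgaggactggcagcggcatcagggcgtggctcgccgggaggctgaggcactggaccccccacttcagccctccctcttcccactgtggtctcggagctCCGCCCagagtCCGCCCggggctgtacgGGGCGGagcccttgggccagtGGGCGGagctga
Axl, chr7:25788734-25788983, minus strand: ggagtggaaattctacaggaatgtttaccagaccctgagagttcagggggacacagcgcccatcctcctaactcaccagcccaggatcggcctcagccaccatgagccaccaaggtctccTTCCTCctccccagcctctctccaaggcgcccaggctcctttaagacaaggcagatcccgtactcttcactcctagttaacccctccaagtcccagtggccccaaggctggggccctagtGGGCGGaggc

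The GC box GGGCGG was present in 6 of the 7 member promoters, against 32.7% of 32841 promoters in the table. The member windows held 43.2% (Cd36) to 73.2% (Tyro3) G and C, and all but Cd36 were above the median of 52.4% for all promoters. The GC box counts were not adjusted for this. Gas6 held 4 copies, which began 66, 51, 20 and 8 bases before the start, and Mfge8 also held 4. Trem2 held none. It had instead the PU.1 core GAGGAA 40 bases before the start, a letter match for the myeloid factor PU.1 found in 23.3% of promoters. It also had the AP-1 site TGANTCA 9 bases before the start (6.75% of promoters) and the nuclear receptor half-site AGGTCA at 68 bases (14%). The PU.1 core was also found in Axl and Mfge8, and the half-site in Cd36. The E-box CACGTG (6.02% of promoters), the C/EBP core TTGCNNAA (9.57%) and the TATA box TATAAA (12.4%) matched no member. The last 50 bases of the Trem2, Mfge8 and Tyro3 windows and the last 22 of the Axl window were also found in a transcript. So were the last 6 of Gas6, 9 of Mertk and 5 of Cd36. The PU.1 core and the AP-1 site of Trem2 lie within those bases, so they may fall in transcribed sequence. The same holds for the GC boxes of Mfge8 that began 50, 33 and 12 bases before the start. It also holds for the GC boxes of Axl at 10 and Tyro3 at 22 bases, and in part for that of Gas6 at 8 bases. The motif matches overlapped nowhere in the printed sequences and describe letters in these windows, not bound factors.

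The macrophage libraries held 15605300 to 18062900 counts and the liver libraries 17322800 to 20914000, each rounded to 6 digits. In macrophages Adgre1, the F4/80 antigen, stood at 995 to 2089 CPM (counts scaled to the library's size) and Csf1r, the receptor for macrophage colony-stimulating factor, at 802 to 2748 CPM. The summed level of 10 hepatocyte markers there was at most 0.468 CPM, and the Kupffer cell lectin Clec4f had 0 counts in every macrophage library. B-cell RNA was present, with Ighm, the heavy chain of IgM, between 75.5 and 450 CPM. The shNC replicate 2 library stood apart from the other shNC libraries. Its level of F10, coagulation factor X, was 76.6 CPM against 1052 and 1032 CPM, and that of the B-cell chemokine Cxcl13 was 373 CPM against 5.96 and 3.58 CPM. In liver, LPS replicate 1 was low in macrophage genes, with Clec4f at 29.4 CPM against 106 and 86.2 CPM in the other LPS livers, and Csf1r at 7.20 CPM against 28.5 and 22.4 CPM. Its mitochondrial share of counts was 9.65%, against 6.24% and 6.21% in the other LPS livers and 5.06% to 5.45% in untreated livers. The part of these library differences in the results below was not tested, and values without each of these libraries are given where a call turned on them.

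In LPS-treated macrophages, Gas6, Trem2, Mfge8 and Tyrobp were higher with the Gm26917 hairpin and Axl was lower. At an adjusted p under 0.05 in edgeR's quasi-likelihood test, adjusted by Benjamini-Hochberg over all genes tested, 5 of the 8 genes changed (62.5%). The same threshold was passed by 23.7% of all 12876 genes tested, 12.6% higher and 11.1% lower. The median log2 fold change was 0.88 over the 8 genes and -0.00 over all genes tested. The values of shNC and shGm26917 libraries did not overlap for 6 of the 8, against 45.9% of all genes tested. Levels are CPM scaled by the TMM method and log2 fold changes are shGm26917 minus shNC. Without shNC replicate 2, 6 of the 8 passed the threshold, 5 higher and 1 lower, against 39.6% of all genes in that fit.

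**Figure D1:**
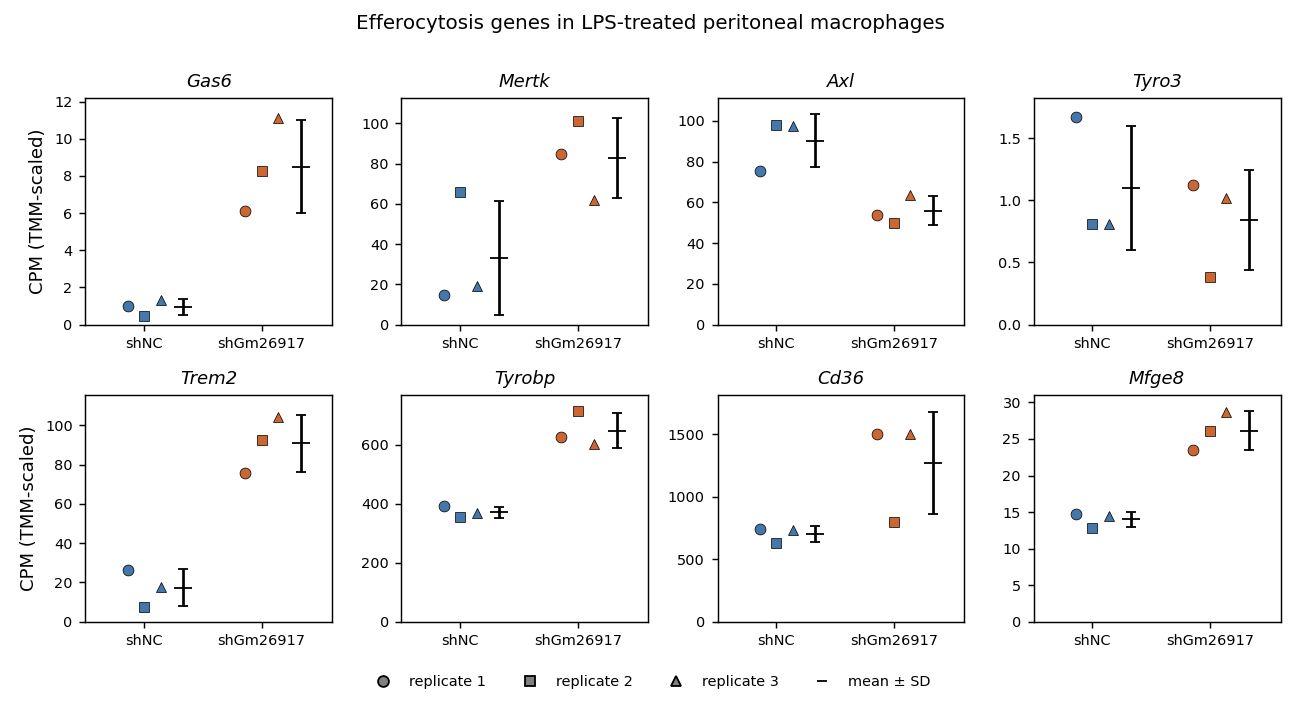
Level of each efferocytosis gene in CPM (TMM-scaled, linear axis from 0) in the 6 LPS-treated macrophage libraries. Symbols are replicates, and the bar beside them is the mean ± SD of 3 libraries. Gas6 and Trem2 lie near the axis in shNC and far above it in shGm26917, Axl lies lower in all 3 shGm26917 libraries, and shNC replicate 2 is the high shNC point for Mertk.

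Gas6, the ligand, had the largest fold change of the 8. It stood at 1.00, 0.472 and 1.35 CPM in shNC replicates 1 to 3, from 15, 7 and 20 counts, and at 6.10, 8.26 and 11.1 CPM in the shGm26917 replicates, from 120, 151 and 196 counts. Every shGm26917 library was above every shNC library. The mean rose from 0.942 ± 0.442 to 8.49 ± 2.50 CPM (SD over 3 libraries each). The log2 fold change was 3.16 (SE 0.42, edgeR adjusted p = 0.00541). This was rank 75 from the top among the 12876 genes tested. Gas6 reached the filter's minimum level of 0.608 CPM in 2 shNC libraries and in all 3 shGm26917 libraries, so it entered the test through the group in which it was high. Without any filter on low counts, and in each of the other 11 alternatives, it remained past the threshold.

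The TAM receptors did not move together. Axl stood at 75.4, 98.1 and 97.7 CPM in shNC and at 53.8, 49.9 and 63.8 CPM in shGm26917, with no overlap. It fell from 90.4 ± 13.0 to 55.9 ± 7.18 CPM, a log2 fold change of -0.69 (SE 0.15, edgeR adjusted p = 0.0227). The call ended when shNC replicate 3 was left out (edgeR adjusted p = 0.0684) or any of the 3 shGm26917 libraries (0.0509 to 0.0990), and with library totals in place of TMM scaling (log2 fold change -0.40, adjusted p = 0.0708). Mertk, the engulfment receptor, stood at 14.5, 65.9 and 19.2 CPM in shNC and at 84.6, 101 and 61.8 CPM in shGm26917. The shNC replicate 2 value lay above the lowest shGm26917 value, so the groups overlapped. The mean was 33.2 ± 28.4 against 82.6 ± 19.9 CPM, and the log2 fold change of 1.32 (SE 0.57) did not pass the test (edgeR adjusted p = 0.137). Without shNC replicate 2 it was 2.28 (SE 0.23, adjusted p = 0.000376). Tyro3, the TAM receptor best known from the nervous system, was close to the limit of detection, with 12 to 25 counts in shNC and 7 to 22 in shGm26917 libraries. Its means of 1.10 ± 0.498 and 0.840 ± 0.399 CPM overlapped (log2 fold change -0.38, SE 0.52, edgeR adjusted p = 0.629).

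Trem2 stood at 26.5, 7.56 and 17.9 CPM in shNC and at 75.6, 92.7 and 104 CPM in shGm26917. All 3 shGm26917 libraries were well above the highest shNC library, and shNC replicate 2 was the lowest of the 6. The mean rose from 17.3 ± 9.48 to 90.8 ± 14.3 CPM, a log2 fold change of 2.39 (SE 0.42, edgeR adjusted p = 0.0115). This was rank 195 from the top. The adjusted p became 0.0510 without shGm26917 replicate 2 and 0.0509 without shGm26917 replicate 3. Its adaptor Tyrobp, which also serves many other receptors, was far more abundant, at 391, 354 and 370 CPM in shNC and 627, 715 and 602 CPM in shGm26917. The groups did not overlap. Tyrobp rose from 372 ± 18.8 to 648 ± 59.3 CPM, a log2 fold change of 0.80 (SE 0.14, edgeR adjusted p = 0.0105, and 0.0548 without shGm26917 replicate 2). Receptor and adaptor therefore differed in the size of their rise. There were 6.77, 2.13 and 4.84 Trem2 counts per 100 Tyrobp counts in shNC and 12.1, 13.0 and 17.3 in shGm26917. The values of this ratio did not overlap, and it was not tested.

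Mfge8, the integrin bridge, stood at 14.7, 12.9 and 14.4 CPM in shNC and at 23.4, 26.1 and 28.8 CPM in shGm26917. The spread within each group was small and the groups were apart. It rose from 14 ± 0.988 to 26.1 ± 2.66 CPM, a log2 fold change of 0.90 (SE 0.14, edgeR adjusted p = 0.00761). The call held in all 12 alternatives, as it did for Gas6. Cd36, the scavenger receptor and the most abundant of the 8 by CPM, stood at 739, 630 and 735 CPM in shNC and at 1503, 796 and 1507 CPM in shGm26917. The shGm26917 replicate 2 value lay just above the shNC values, while the other shGm26917 libraries were far above them. The mean was 701 ± 62.1 against 1269 ± 409 CPM, with no overlap, and the log2 fold change of 0.86 (SE 0.27) missed the threshold (edgeR adjusted p = 0.0614). It passed without shGm26917 replicate 2 (log2 fold change 1.11, adjusted p = 0.0349), with library totals (1.14, adjusted p = 0.0205) and with DESeq2 (adjusted p = 0.0144).

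These are bulk libraries, in which fewer cells of a type and less RNA per cell cannot be told apart. Macrophage genes outside the 8 also differed between the macrophage groups, where 12.6% of all genes tested were higher and 11.1% lower. Csf1r rose from 1004 ± 180 to 2498 ± 232 CPM (log2 fold change 1.32, edgeR adjusted p = 0.00782), whereas Adgre1 stood at 1519 ± 501 and 1262 ± 277 CPM (adjusted p = 0.528) and Gata6, the transcription factor of large peritoneal macrophages, at 29.4 ± 12.7 and 29.2 ± 5.24 CPM (adjusted p = 0.984). Of the 12 large peritoneal macrophage markers, 3 were higher and 0 lower (0 higher without shGm26917 replicate 2, and 1 without shGm26917 replicate 3, shNC replicate 1 or shNC replicate 3). Their summed level was 7331 to 10340 CPM in shNC and 14060 to 23730 CPM in shGm26917, of which Lyz2, lysozyme, made up 3092 to 7236 CPM and 9949 to 19170 CPM. The sum of the 10 markers of small peritoneal macrophages and dendritic cells was 837 to 1192 CPM in shNC and 512 to 866 CPM in shGm26917, with 0 higher and 1 lower. The 8 monocyte markers summed to 432 to 1341 CPM and to 1717 to 1912 CPM, with 0 higher and 1 lower. F10 is one of them, and its level made up most of this sum in shNC replicates 1 and 3. The 6 B-cell markers summed to 192 to 606 CPM and to 117 to 285 CPM, and none of the 5 tested passed. The 10 neutrophil markers summed to 221.5 to 605.4 CPM in shNC and 275.5 to 419.4 CPM in shGm26917. Of the 3 tested, 0 were higher and 1 lower (0 to 1 higher and 0 to 2 lower in the alternatives). The 9 T and NK cell markers summed to 4.05 to 7.96 CPM and to 2.43 to 3.72 CPM, and the 1 tested did not pass. The 11 markers of stellate cells, fibroblasts and mesothelium summed to 22.2 to 27.9 CPM in shNC and 3.83 to 5.26 CPM in shGm26917, and none of the 3 tested passed. Without shNC replicate 2, 3 markers of small peritoneal macrophages and dendritic cells and 2 of monocytes were higher. The part of cell composition in the changes of the 8 genes was not tested.

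In liver 2 h after LPS, Axl was higher and no other efferocytosis gene passed the test. By edgeR's quasi-likelihood test, 1 of the 7 genes tested changed (14.3%), against 45.3% of all 13869 genes tested, 23.3% higher and 22.1% lower. Without a filter on low counts the shares were 37.5% of the 8 genes and 27.4% of all 24918 genes then tested. With DESeq2 they were 42.9% of 7 and 46.6%. The share of the efferocytosis genes was the smaller in every setting except the one without a filter. The median log2 fold change, LPS minus untreated, was 0.50 over the 7 and -0.06 over all genes tested. The groups did not overlap for 1 of the 7, against 57.8% of all genes tested. Tyro3 was too low to be tested. Without LPS replicate 1, 2 of the 7 passed (28.6%, against 37.3% of all genes in that fit), and they were Tyrobp, higher, and Mertk, lower.

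**Figure D2:**
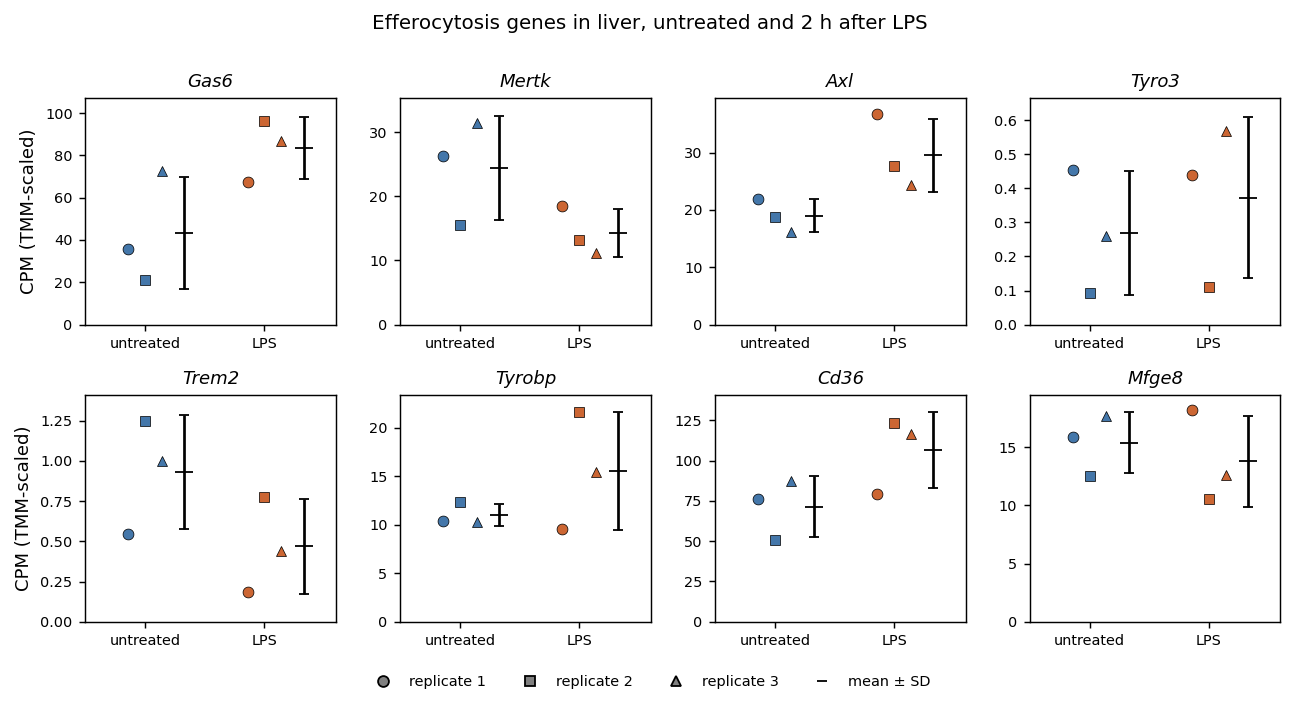
Level of each efferocytosis gene in CPM (TMM-scaled, linear axis from 0) in the 3 untreated livers and the 3 livers 2 h after LPS. Symbols are replicates, and the bar beside them is the mean ± SD of 3 libraries. Axl is the gene whose groups are apart, and Gas6 in untreated replicate 3 lies among the LPS values. LPS replicate 1 is the lowest LPS library for Gas6, Trem2, Tyrobp and Cd36 and the highest for Axl, Mertk and Mfge8.

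Axl stood at 22, 18.8 and 16.2 CPM in untreated livers and at 36.7, 27.6 and 24.3 CPM after LPS. The lowest LPS value lay just above the highest untreated value. Axl rose from 19.0 ± 2.89 to 29.5 ± 6.42 CPM, a log2 fold change of 0.63 (SE 0.21, edgeR adjusted p = 0.0365). The call was lost when untreated replicate 2 was left out (edgeR adjusted p = 0.0963), likewise untreated replicate 3 (0.0816), and in the LPS group replicate 1 (0.103) or 2 (0.0710). It was also lost with library totals (log2 fold change 0.20, adjusted p = 0.499). Mertk stood at 26.4, 15.5 and 31.4 CPM in untreated and at 18.5, 13.2 and 11.1 CPM in LPS livers. Untreated replicate 2 fell within the LPS range. The mean was 24.4 ± 8.16 against 14.3 ± 3.78 CPM (log2 fold change -0.77, SE 0.29, edgeR adjusted p = 0.0589). Mertk passed as lower without untreated replicate 2 (-1.04, adjusted p = 0.0158), without LPS replicate 1 (-0.99, adjusted p = 0.0456), with library totals (-1.21, adjusted p = 0.0144), without a filter on low counts (-0.78, adjusted p = 0.0228) and with DESeq2 (adjusted p = 0.0470). Tyro3 had 10, 2 and 6 counts in untreated and 7, 2 and 9 in LPS livers, at most 0.569 CPM, and a difference was not detectable at this depth (without a filter, log2 fold change 0.44, SE 0.79, edgeR adjusted p = 0.699).

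Gas6 stood at 35.5, 21.3 and 72.5 CPM in untreated livers and at 67.2, 96.1 and 86.7 CPM after LPS. Untreated replicate 3 lay within the LPS range and well above the other untreated livers. The mean was 43.1 ± 26.4 against 83.4 ± 14.7 CPM (log2 fold change 0.95, SE 0.39, edgeR adjusted p = 0.0792). Without untreated replicate 3 the log2 fold change was 1.55 (edgeR adjusted p = 0.00214), and Gas6 also passed without a filter (adjusted p = 0.0197) and with DESeq2 (adjusted p = 0.0384). Mfge8 stood at 15.9, 12.6 and 17.7 CPM and at 18.2, 10.6 and 12.6 CPM, with full overlap (log2 fold change -0.16, SE 0.24, edgeR adjusted p = 0.622). Cd36 stood at 76.3, 50.4 and 87.1 CPM in untreated livers and at 79.5, 123 and 117 CPM after LPS. Its groups overlapped through LPS replicate 1 (log2 fold change 0.58, SE 0.26, edgeR adjusted p = 0.0998, and 0.75 with adjusted p = 0.0487 without untreated replicate 3).

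Trem2 was scarce in liver, with 12, 27 and 23 counts in untreated and 3, 14 and 7 in LPS livers. These were 0.545, 1.25 and 0.997 CPM against 0.188, 0.776 and 0.443 CPM, and the groups overlapped. The log2 fold change was -0.96 (SE 0.56, edgeR adjusted p = 0.192), and Trem2 had entered the test through the untreated group, where all 3 libraries reached the filter's 0.515 CPM, against 1 after LPS. Tyrobp stood at 10.4, 12.4 and 10.3 CPM in untreated livers and at 9.52, 21.7 and 15.5 CPM after LPS. LPS replicate 1 was below the untreated livers and the other LPS livers were above them (log2 fold change 0.50, SE 0.29, edgeR adjusted p = 0.184). Without LPS replicate 1 the log2 fold change was 0.77 (adjusted p = 0.0298). There were 5.24, 10.1 and 9.71 Trem2 counts per 100 Tyrobp counts in untreated livers and 1.97, 3.58 and 2.86 after LPS, values that did not overlap and were not tested.

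Cell type markers in the same livers moved as follows, beside 23.3% higher and 22.1% lower among all genes tested. The 10 hepatocyte markers, among them Alb, summed to 92880 to 140300 CPM in untreated and 78400 to 121700 CPM in LPS livers, with 1 higher and 1 lower. Of 11 Kupffer cell markers, 2 were higher and 1 lower (2 and 5 with library totals), with a median log2 fold change of -0.51. Their summed level was 393 to 444 CPM in untreated and 405 to 718 CPM in LPS livers. All 7 neutrophil markers tested were higher, and their list summed to 3.00 to 8.50 CPM and to 215 to 299 CPM. Of 10 sinusoidal endothelial markers 3 were higher and 6 lower, and of 10 markers of stellate cells, fibroblasts and mesothelium 0 were higher and 1 lower. Of 8 monocyte markers 6 were higher and 1 lower, with a median log2 fold change of 2.59. Their list, which includes Hp (haptoglobin) and F10, summed to 2349 to 3917 CPM in untreated and 16450 to 19060 CPM in LPS livers. The parts of Hp and F10 in this sum were not separated, so it does not measure monocyte RNA alone. Of 9 T and NK cell markers 3 were higher and 0 lower (1 higher without LPS replicate 1, untreated replicate 1 or untreated replicate 3), of 6 cholangiocyte markers 2 were higher and 0 lower (1 higher without LPS replicate 1 and 4 without untreated replicate 3), and of 6 B-cell markers 0 were higher and 1 lower. Without LPS replicate 1, 3 of 11 stellate cell, fibroblast and mesothelium markers were lower. The part of these in the values of the 8 genes was not tested.

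**Figure D3:**
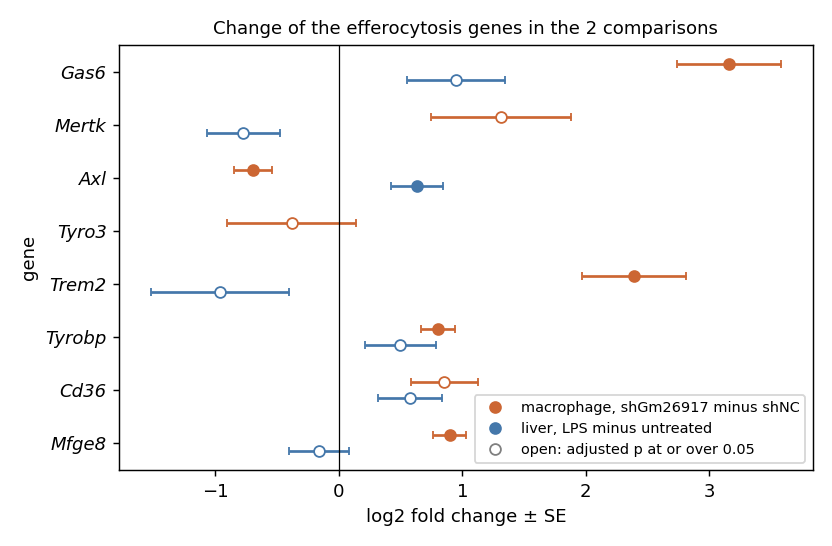
Log2 fold change ± SE of each efferocytosis gene from edgeR in macrophages (shGm26917 minus shNC, orange) and in liver (LPS minus untreated, blue). Filled circles passed an adjusted p of 0.05, and Tyro3 was not tested in liver. Gas6 and Trem2 lie farthest to the right in macrophages, at 3.16 and 2.39, and Axl lies at -0.69 in macrophages and at 0.63 in liver.

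Placed side by side, the comparisons differed for several members, and this difference was not tested, since the tissues, treatments and annotations differ. Axl was lower with the hairpin in macrophages and higher with LPS in liver. Trem2 had a log2 fold change of 2.39 in macrophages and -0.96 in liver, and Mertk of 1.32 and -0.77, with the macrophage value of Trem2 the one of these 4 that passed.

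The balance of the TAM receptors was expressed as the share of Axl in the summed CPM per kb of exon of Axl, Mertk and Tyro3 within each library, a measure that does not depend on scaling between libraries. In macrophages this share was 80.5%, 56.0% and 81.0% in shNC and 35.2%, 29.7% and 46.8% in shGm26917. All shNC libraries were above all shGm26917 libraries, with shNC replicate 2 the nearest to them. The mean went from 72.5% ± 14.3 to 37.3% ± 8.72 (SD, n = 3), a difference of -35.3 percentage points (exact permutation test, 2-sided, p = 0.1, the smallest that 3 against 3 allows). Mertk accounted for nearly all of the rest, with a mean share of 26.7% in shNC and 62.3% in shGm26917. In liver the Axl share was 41.5%, 51.1% and 30.6% in untreated and 62.7%, 64.1% and 64.5% in LPS livers. The LPS livers lay close together, above all untreated livers. The mean went from 41.1% ± 10.2 to 63.8% ± 0.914, a difference of 22.7 percentage points (exact permutation p = 0.1, again the smallest possible). Leaving out shNC replicate 2 gave -43.5 points in macrophages, and leaving out LPS replicate 1 gave 23.2 points in liver.

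**Figure D4:**
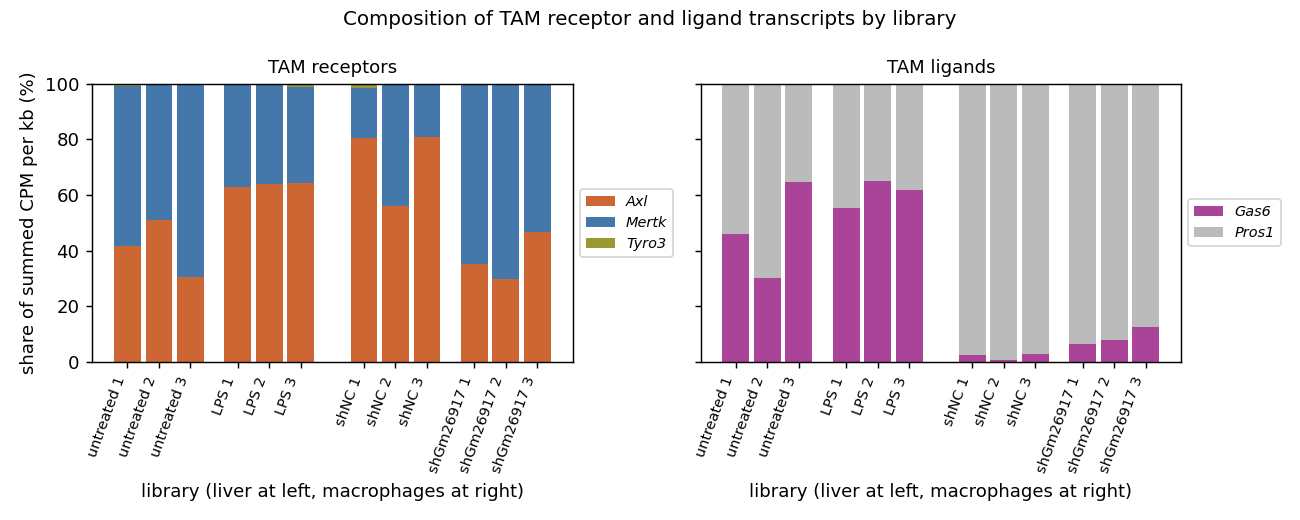
Composition of TAM receptor transcripts (left) and TAM ligand transcripts (right) in each of the 12 libraries, as a percent of their summed CPM per kb of exon. Axl makes up 56.0% to 81.0% of receptor transcripts in shNC and 29.7% to 46.8% in shGm26917 macrophages, and Gas6 is a small part of ligand transcripts in macrophages and a larger part in liver.

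The ligands were compared in the same way. Gas6 made up 2.61%, 0.603% and 2.98% of the summed Gas6 and Pros1 level per kb in shNC and 6.41%, 7.78% and 12.5% in shGm26917 macrophages. Pros1 was thus the more abundant ligand transcript in every macrophage library. The groups did not overlap, with means of 2.07% ± 1.28 and 8.88% ± 3.18 (exact permutation p = 0.1, the smallest possible). Pros1 itself was at 85.1 ± 34.8 CPM in shNC and 142 ± 16.1 CPM in shGm26917 (log2 fold change 0.74, SE 0.28, edgeR adjusted p = 0.102). In liver the Gas6 share was 46.1%, 30.2% and 64.8% in untreated and 55.2%, 65.1% and 61.7% in LPS livers, which overlapped (exact permutation p = 0.3).

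Levels per kb of exon allowed the 8 genes to be ordered within a group. In shNC macrophages Tyrobp was highest at 557 ± 28.3 CPM per kb, followed by Cd36 at 195 ± 17.3, Axl at 18.0 ± 2.59, Mertk at 7.66 ± 6.56, Trem2 at 3.50 ± 1.92, Mfge8 at 2.99 ± 0.210, Gas6 at 0.370 ± 0.173 and Tyro3 at 0.177 ± 0.0804. From Axl down to Mfge8 the libraries of neighbouring genes overlapped, as did those of Gas6 and Tyro3. In shGm26917 macrophages Mertk, at 19.0 ± 4.59 CPM per kb, and Trem2, at 18.4 ± 2.90, stood above Axl at 11.1 ± 1.43, and Tyrobp and Cd36 were again first. In untreated liver Cd36 (19.9 ± 5.26 CPM per kb), Gas6 (16.9 ± 10.4) and Tyrobp (16.5 ± 1.75) formed a top group within each other's spread. Mertk, Axl and Mfge8 followed at 5.63 ± 1.88, 3.78 ± 0.575 and 3.28 ± 0.556, and Trem2 and Tyro3 were below 0.2 CPM per kb. After LPS, Gas6 was first in liver at 32.7 ± 5.78 CPM per kb, not apart from Cd36 at 29.7 ± 6.56. The position of Trem2 depends on its annotated length, since its exons cover 4946 bases in all but its longest coding transcript has 1088. By that transcript its levels were 15.9 ± 8.72 per kb in shNC and 83.5 ± 13.2 per kb in shGm26917 macrophages. The mean of Trem2 then stood above that of Mertk in both. Mfge8 depends on length as well, with 4694 exon bases and a longest coding transcript of 2125. By longest transcripts its mean in untreated liver was 7.24 ± 1.23 per kb, above Mertk at 5.7 ± 1.9 and Axl at 4.46 ± 0.678.

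Genes outside the 8 were ordered by how closely their pattern over the 6 libraries of a tissue followed each member, as the root mean square distance of centred log2 CPM. In macrophages the gene nearest to Gas6 was Mgmt, a DNA repair enzyme (distance 0.186), followed by Ctsk, the cysteine protease cathepsin K (0.236), and Tnfsf12, the cytokine TWEAK (0.238). Nearest to Trem2 were F7, coagulation factor VII (0.238), the long non-coding RNA Gm20619 and Ephx1, an epoxide hydrolase. Axl was followed most closely by Pea15a, an adaptor of the ERK kinases (0.0214), and Oser1. The nearest to Tyrobp were Ndufv3, a subunit of respiratory complex I (0.0499), Ccdc191 and the lysosomal enzyme Naglu. Mfge8 was nearest to Pgls, Polr2e and Tmem120b, Mertk to Rab11fip5, Arhgef10l and Cep128, and Cd36 to Cmc2, Pde8b and Rundc3a. In liver the nearest to Axl were Cxxc1 (0.0462), H2-Eb1, an MHC class II chain, and Zswim8, and the nearest to Gas6 were Sorl1 (0.213), Sptlc2 and E2f8. These distances describe 6 libraries, with no test.

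The other genes of the pathway were counted in 10 lists. In macrophages these counts stand beside 12.6% higher and 11.1% lower among all genes tested. In macrophages the list of other phosphatidylserine receptors and bridging proteins had 2 higher and 2 lower of 17 tested, with a median log2 fold change of 0.40. The inhibitory phosphatidylserine receptor Cd300a rose from 27.4 ± 3.29 to 80.0 ± 19.1 CPM (log2 fold change 1.55, edgeR adjusted p = 0.00526) and the HDL receptor Scarb1 from 56.0 ± 9.20 to 115 ± 5.53 CPM (1.03, adjusted p = 0.00646). Itgb3, the beta chain of alpha-v beta-3 alone among the integrins that Mfge8 links, was scarce and fell from 3.50 ± 0.486 to 0.286 ± 0.108 CPM (-3.57, adjusted p = 0.00342). Its shGm26917 mean lay below the filter's minimum of 0.608 CPM, so Itgb3 entered the test through shNC. The other integrin chains that Mfge8 uses are not reported here for macrophages. Among signals of dying cells and their sensors 1 was higher and 4 lower of 11 tested. Cd47, the signal that protects cells from being eaten, fell from 365 ± 44.2 to 108 ± 20.2 CPM (-1.76, adjusted p = 0.00334), and P2ry2, a receptor for released nucleotides, from 97.5 ± 7.75 to 50.05 ± 6.71 CPM (-0.96, adjusted p = 0.00642). S1pr1, a receptor for sphingosine 1-phosphate, rose from 33.2 ± 9.38 to 102 ± 22 CPM (1.62, adjusted p = 0.00762).

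The engulfment machinery had 2 higher and 3 lower of 15 tested in macrophages. Dock1, an activator of Rac, rose from 20.6 ± 6.09 to 60.0 ± 5.56 CPM (log2 fold change 1.54, edgeR adjusted p = 0.00653), and the GTPase Rac2 fell from 810.0 ± 92.4 to 326 ± 10.6 CPM (-1.31, adjusted p = 0.00371). The list for digestion of engulfed cells and cholesterol export had 6 higher and 0 lower of 17 tested, with a median of 0.42. Its members included Lipa, lysosomal acid lipase, which rose from 286 ± 21.3 to 881 ± 257 CPM (1.63, adjusted p = 0.00631), the mitochondrial carrier Ucp2 (180 ± 29.5 to 466 ± 46.6 CPM, 1.37, adjusted p = 0.00483) and the autophagy enzyme Atg7 (48.5 ± 3.82 to 92.7 ± 3.37 CPM, 0.93, adjusted p = 0.00402). Among the nuclear receptors and factors known to induce efferocytosis genes 1 was higher and 2 lower of 14 tested.

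In the list of TAM feedback and shedding 0 were higher and 4 lower of 13 tested in macrophages. Socs1 fell from 144 ± 45.0 to 26.5 ± 12.4 CPM (log2 fold change -2.44, edgeR adjusted p = 0.00884) and Socs3, the other cytokine suppressor, from 1911 ± 570 to 422 ± 126 CPM (-2.18, adjusted p = 0.00689). Genes around Trem2 and Tyrobp went both ways. Of the TREM family and other DAP12-linked receptors, 1 was higher and 3 lower of 7 tested. Cd300lb, an activating receptor that pairs with Tyrobp, rose from 31.3 ± 4.88 to 212 ± 11.7 CPM (2.76, adjusted p = 0.00150), and Pilrb1 fell from 111 ± 23.2 to 51 ± 1.92 CPM (-1.12, adjusted p = 0.00780). Of the ITAM signalling genes 1 was higher and 3 lower of 14 tested, and the adaptor Card9 rose from 38.1 ± 6.51 to 77.9 ± 13.5 CPM (1.03, adjusted p = 0.0107). The list of lipid genes known to accompany Trem2 in macrophages had 6 higher and 1 lower of 14 tested, with a median of 1.01. Fabp5 rose from 80.8 ± 29.6 to 751 ± 335 CPM (3.22, adjusted p = 0.00502) and Fabp4 from 33.1 ± 8.04 to 150 ± 70.3 CPM (2.18, adjusted p = 0.00901), both of them fatty acid carriers. The scavenger receptor and fatty acid uptake list, which shares Fabp4, Fabp5 and Scarb1 with those above, had 5 higher and 1 lower of 14 tested. Fabp5 and Pilrb1 have near-identical copies in the genome, so their levels are less certain.

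In liver the same lists were counted, beside 23.3% higher and 22.1% lower among all genes tested there. Among TAM feedback genes 7 were higher and 1 lower of 15 tested, and Socs3 rose from 10.3 ± 0.893 to 717 ± 246 CPM (log2 fold change 6.12, edgeR adjusted p = 6.29e-06) and Socs1 from 0.589 ± 0.211 to 233 ± 26.0 CPM (8.62, adjusted p = 1.53e-06). Adam10, a protease that sheds surface receptors, fell from 28.6 ± 4.2 to 15.1 ± 1.21 CPM (-0.93, adjusted p = 0.00348). Socs1 and Socs3 thus rose with LPS in liver and fell with the hairpin in macrophages, a difference between the comparisons that was not tested. The ITAM signalling list had 7 higher and 1 lower of 14 tested. Syk, the kinase below Tyrobp, rose from 4.83 ± 0.159 to 25.6 ± 1.53 CPM (2.40, adjusted p = 1.71e-05), and Inpp5d, the phosphatase SHIP1, fell from 4.24 ± 0.377 to 1.58 ± 0.392 CPM (-1.42, adjusted p = 0.00498). In the TREM family and DAP12-linked list 4 were higher and 1 lower of 9 tested, and Trem1, the inflammatory relative of Trem2, rose from 0.0756 ± 0.0279 to 2.56 ± 0.631 CPM (4.98, adjusted p = 9.40e-05). Its untreated mean lay below the filter's minimum of 0.515 CPM, so Trem1 entered the test through the LPS group.

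Among the nuclear receptors and factors 3 were higher and 4 lower of 14 tested in liver. Maf, a transcription factor of macrophages and other cells, fell from 28.4 ± 6.63 to 9.74 ± 1.66 CPM (log2 fold change -1.54, edgeR adjusted p = 0.00105). Signals of dying cells and their sensors had 7 higher and 2 lower of 13 tested. Sphk1, which makes sphingosine 1-phosphate, rose from 0.463 ± 0.10 to 13.1 ± 4.08 CPM (4.80, adjusted p = 1.71e-05). The untreated means of Sphk1 and of Socs1 were close to the filter's minimum of 0.515 CPM, so their fold changes start from scarce reads. The scramblase Xkr8 fell from 6.00 ± 1.52 to 2.34 ± 0.624 CPM (-1.35, adjusted p = 0.00785). The other phosphatidylserine receptors and bridging proteins had 4 higher and 2 lower of 16 tested, with Thbs1, a Cd36 ligand, higher (1.36 ± 1.03 to 46.3 ± 11.5 CPM, 5.09, adjusted p = 7.64e-05) and Itgb5 lower (60.0 ± 4.45 to 34.9 ± 3.74 CPM, -0.78, adjusted p = 0.00551). Digestion and cholesterol export had 1 higher and 4 lower of 17 tested. The cholesterol exporter Abca1 rose from 122 ± 13.9 to 486 ± 38.4 CPM (1.99, adjusted p = 0.000138), and Npc1, which moves cholesterol out of lysosomes, fell from 193 ± 60.5 to 46.6 ± 12.9 CPM (-2.05, adjusted p = 0.000781).

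Engulfment machinery had 3 higher and 2 lower of 15 tested in liver, the lipid genes 2 higher and 0 lower of 12, and the scavenger receptors 5 higher and 3 lower of 19. Among all genes tested in liver 23.3% were higher and 22.1% lower. Rac2 rose from 5.83 ± 0.693 to 18.1 ± 5.51 CPM (log2 fold change 1.64, edgeR adjusted p = 0.00137). Marco, a scavenger receptor for bacteria, rose from 8.30 ± 3.21 to 48.2 ± 15.5 CPM (2.54, adjusted p = 0.000470), and Cd163, the haemoglobin scavenger receptor, fell from 18.3 ± 1.66 to 4.93 ± 2.59 CPM (-1.89, adjusted p = 0.00474). In macrophages these counts moved with the libraries used, as did the share of all genes called. That share was 20.5% higher and 19.1% lower without shNC replicate 2, and 3.62% higher and 2.72% lower without shGm26917 replicate 2, against 12.6% and 11.1% with all libraries. Without shNC replicate 2, higher genes became 7 of 16 for phosphatidylserine receptors, 12 of 17 for digestion and cholesterol export, 5 of 14 for nuclear receptors, 4 of 15 for engulfment machinery, 3 of 14 for ITAM signalling and 3 of 13 for TAM feedback, and lower genes became 6 of 15 for engulfment machinery and 5 of 14 each for nuclear receptors and ITAM signalling. Without shGm26917 replicate 2, as without shGm26917 replicate 3, higher genes numbered 3 for digestion and cholesterol export and 3 for scavenger receptors, and lower genes 2 for signals of dying cells, 1 for TREM family receptors, 1 for engulfment machinery and 0 for ITAM signalling, and of the nuclear receptors 0 were higher and 0 lower. The counts of lower genes for engulfment machinery and ITAM signalling were 1 and 0 without shGm26917 replicate 1, the former was 1 without shNC replicate 3, and the latter was 1 without shNC replicate 1. With library totals, which moved the split of all genes toward higher in macrophages, the macrophage list of TAM feedback had 4 higher and 4 lower genes, nuclear receptors 5 and 0, engulfment machinery 3 and 1, ITAM signalling 2 and 1, and signals of dying cells 1 and 2. The same scaling moved liver toward lower, with 1 higher and 8 lower for digestion and cholesterol export, 3 and 5 for engulfment machinery, 4 and 6 for scavenger receptors, 2 and 4 for phosphatidylserine receptors and 4 and 2 for ITAM signalling. In liver the ITAM signalling list had 4 higher genes without LPS replicate 2, digestion and cholesterol export had 2 lower without LPS replicate 3, and the lipid genes had 4 higher without untreated replicate 3.

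**Figure D5:**
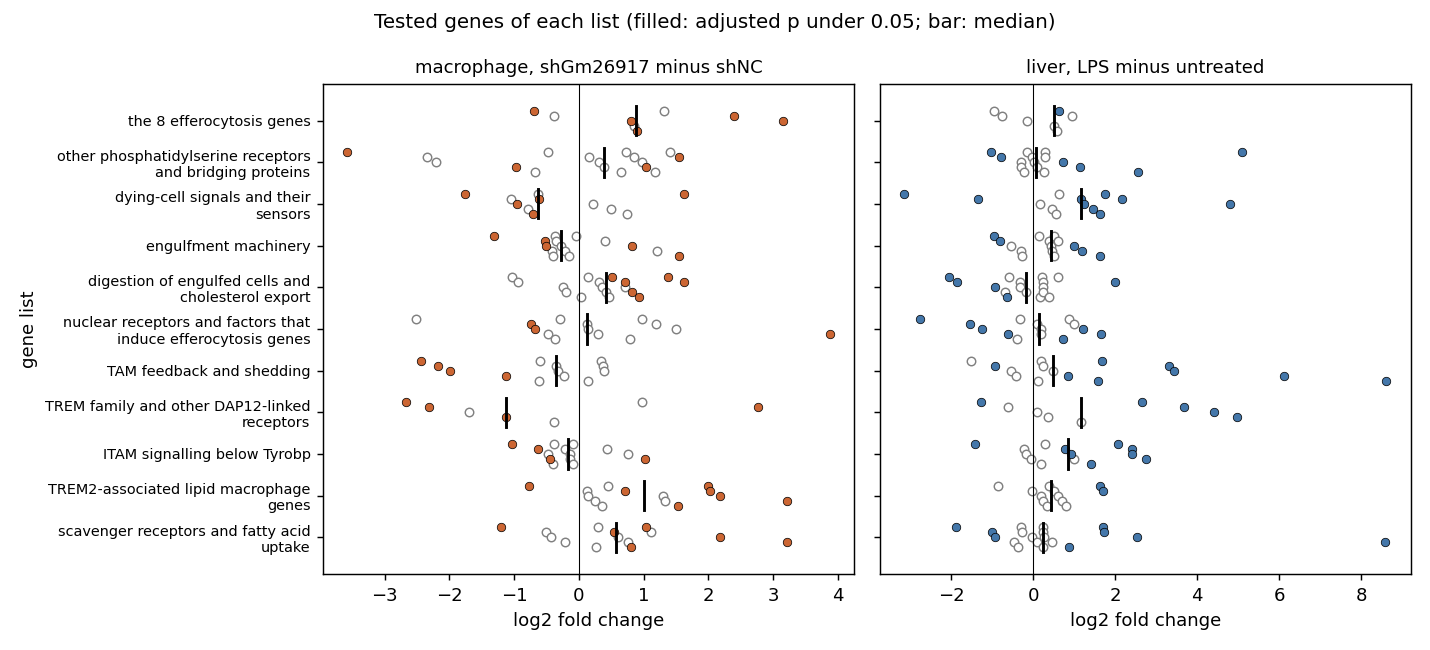
Log2 fold change of every tested gene in the 8 efferocytosis genes and the 10 pathway lists, in macrophages (left) and in liver (right). Filled points passed an adjusted p of 0.05 in edgeR, and the vertical bar is the list's median. The efferocytosis genes have medians of 0.88 and 0.50, and the lipid genes reach 1.01 in macrophages.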

How the data were processed

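Poly(A) RNA was sequenced from liver and peritoneal macrophages. Each library had its own deposited table of raw read counts per Ensembl gene ID, per the file headers. Alignment and counting used STAR and featureCounts 1.6.3 with mm10, per the submitters' processing notes. No source used here gives the counting parameters, strand, handling of multi-mapping reads or annotation release, or what the word combined in the macrophage headers refers to. Liver and macrophage tables listed 49585 and 55401 IDs, with 49022 shared, so each tissue was fitted alone. Symbols matched 49326 and 55141 IDs. Groups came from the titles and treatment labels.

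Genes were kept with filterByExpr (13869 in liver, 12876 in macrophages), scaled by TMM and tested with the 2-sided quasi-likelihood F test of edgeR 4.0.16 (R 4.3.3). Benjamini-Hochberg adjustment covered all genes of a tissue, and genes with an adjusted p under 0.05 were called changed. The SE was derived from the log2 fold change and F, as its absolute value over the root of F. Levels are CPM, mean ± SD of 3 libraries, and per kb they use GENCODE M21 exons. The script was tested on simulated data. Alternatives were other scalings, other filters, DESeq2 1.42.0, a replicate block and leaving out each library.

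The 8 genes and the lists were chosen with earlier results of these data known. All 8 were named by rule. Genes of the 10 pathway lists were eligible if they were among the 3 largest higher or 3 largest lower changes called in a list, and those named held their call in all 12 alternatives, with examples chosen among them after their values were seen. Markers were named as genes that define a cell type, and the nearest patterns were the 3 genes closest to a member (pseudocount 0.5 CPM). Some genes eligible by these rules are not reported here. Promoters are RefSeq's. Counts measure reads, not independent molecules, so depth limits the values of scarce genes such as Tyro3.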

Additional observations from a re-analysis of the deposited data

How the results depend on the processing

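Directions of the member genes held in the alternatives except for values near 0 (Mfge8 in liver and Tyro3 in macrophages, each with 1 exception). The count of changed efferocytosis genes in liver, 1 as reported, was 3 without a filter on low counts, 3 with DESeq2, and 0 to 2 when 1 library was left out. In macrophages that count, 5 as reported, ranged from 3 to 6 when 1 library was left out, with the 3 reached without shGm26917 replicate 2 and without shGm26917 replicate 3. The number of all genes changed in macrophages, 3049 as reported, ranged from 839 without shGm26917 replicate 2 to 5236 without shNC replicate 2. With library totals alone as the scaling, the median over all genes moved to -0.49 (log2) in liver and 0.29 in macrophages. It gave 1943 higher and 5305 lower genes in liver in place of 3227 and 3060, and 3135 higher and 794 lower in macrophages in place of 1618 and 1431. Changes are therefore relative to the TMM scaling, and the cause of the other shifts was not tested. Under library totals Axl was called in neither tissue. Shares of receptors and ligands kept their direction without length correction and without any 1 library.

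Same-numbered libraries deviated together with correlations of 0.12, 0.05 and -0.08 in liver and -0.04, 0.24 and 0.18 in macrophages. Between different numbers the correlations ran from -0.19 to 0.12 in liver and from -0.24 to 0.16 in macrophages. The macrophage values 0.24 and 0.18 thus lay above all those between different numbers there. Whether replicate numbers pair the libraries was not tested. With the replicate number as a block, 2 efferocytosis genes were called in liver, where Gas6 joined Axl (edgeR adjusted p = 0.0432), and 6 in macrophages, where Mertk joined (0.0405). The block gave 5754 genes in liver and 2594 in macrophages. Depth limits Tyro3 in both tissues and Trem2 in liver.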
